A study of Mus musculus with 9 samples.

Results

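Imprinted genes are described here across 9 libraries of mouse blood stem and progenitor cells. The members were a list of 37 imprinted gene symbols, and 35 of them matched a row of the expression table by name, out of 37882 genes in all. Kcnq1ot1 and Peg13, both noncoding RNAs, had no row of that name and were not analysed here. The list was drawn up from gene names, with earlier results of these data known. It was not limited by level, so members near 0 are included.

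The cells were LSK cells, which are bone marrow cells negative for the lineage markers Mac1, Gr1, B220, CD3e and Ter119 and positive for Sca1 and cKit. All mice were aged 6 to 8 weeks, on a B6/129 background, and drank water with 2 mg/ml doxycycline and 10 mg/ml sucrose. All carried rtTA, the doxycycline-responsive activator, in the Rosa26 locus. The rtTA group (3 mice) carried nothing further, the K9M group (3 mice) also carried H3K9M in Col1a1, and the K36M group (3 mice) also carried H3K36M in Col1a1. These are lysine-to-methionine forms of histone H3.3, of the kind known to lower methylation of the named lysine on other H3 molecules. No group carried an unmutated histone transgene, so the mutant residue and an extra histone transgene cannot be told apart. Rosa26 is active in most cell types, so rtTA was not limited to blood. How long doxycycline was given is not given in the sources used here.

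Imprinted genes are expressed mainly from the copy inherited from the mother or from that inherited from the father. The choice is set by DNA methylation laid down in egg or sperm at imprinting control regions, and most imprinted genes lie in clusters that share such a region, often with a long noncoding RNA. After fertilisation the methylated copy is held by ZFP57, TRIM28, the H3K9 methyltransferase SETDB1 and the maintenance enzymes UHRF1 and DNMT1, while H3K36 methylation helps place DNA methylation in the germ line. In blood stem cells, H19, Igf2, Cdkn1c, Ndn and the Dlk1-Meg3 cluster have been tied to quiescence. The deposited table sums both parental copies, so it shows how much RNA a gene gave and not from which copy.

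Levels are RPKM, read counts divided by gene length and by the reads of the library. Depth was read from the steps between low values and came to between about 15860000 reads (K9M replicate 3) and 50320000 reads (K36M replicate 3). Kit, Cd34, Flt3 and Ly6a, the markers of the sorted cells, summed to 592.1 to 833.3 RPKM in rtTA, 645.1 to 766.6 in K9M and 564.2 to 584.2 in K36M. The sorted cells thus carried their defining markers in every group, while the K36M libraries lay below all others in their sum, with Kit at a mean of 66.2 RPKM against 95.38 in rtTA. Each of the 10 granulocyte markers reached 1 RPKM in at least 1 library, and their sum was 7063 RPKM in rtTA replicate 3 against 859.4 to 2450 in the other 8 libraries. Summed erythroid markers ran from 79.84 to 130.1 RPKM in rtTA, from 116.1 to 214.1 in K9M and from 166.1 to 295.9 in K36M. In K36M most of that sum was Hbb-bt (206.1, 181.3 and 101.3 RPKM, against 9.803 to 14.39 in rtTA), a globin gene with near-identical copies. Without Hbb-bt the other 6 erythroid markers summed to 70.04 to 115.7 RPKM in rtTA, 110.4 to 190.5 in K9M and 64.75 to 114.6 in K36M. Of the 10 stroma and endothelium markers, 9 were below 1 RPKM in every library. In bulk RNA, fewer cells of a type and less RNA per cell cannot be told apart. Each replicate was a single independent mouse per the series' design text, and the labels give no batch or date.

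Most members were low in these cells. Averaged over the 9 libraries, 3 members lay above 50 RPKM, 2 between 10 and 50, 12 between 1 and 10, and 18 below 1, of which 8 were below 0.1. A total of 18 members passed the filter for testing (a level of 1 RPKM or more in 3 or more libraries), which is 51.4% of those with a row against 34.1% of all genes. The other 17 did not and are given by level, with fits under other filters named only for Peg3 and Igf2. Of the 18, Snrpn passed in exactly 3 libraries, Nnat in 5 and Mest in 8, and the others in all 9.

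By the kind of imprinting, the 9 members whose imprinting is known to be tissue-restricted or mixed had a median of 17.8 RPKM, and 7 of them passed the filter. The 9 maternally expressed members had a median of 0.504 RPKM, with 4 past the filter, and the 17 paternally expressed members a median of 0.198 RPKM, with 7 past it.

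**Figure D1:**
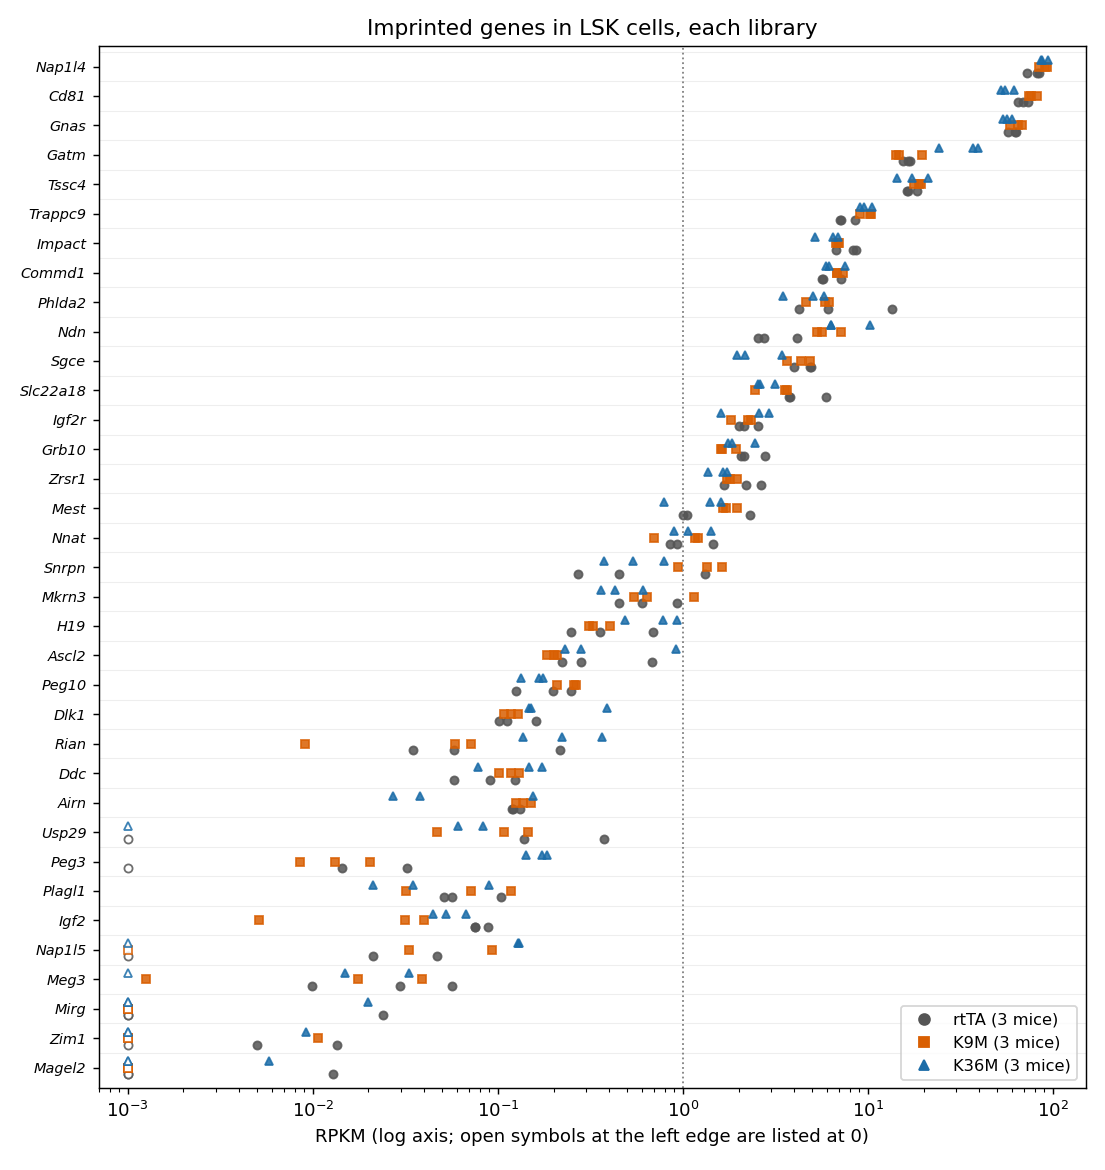
RPKM of the 35 imprinted genes in each library on a log axis, with members ordered by level and libraries marked by group. Nap1l4, Cd81 and Gnas lie above 50 RPKM on average, while 18 members lie below 1.

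Nap1l4, a histone chaperone, was the highest member, with 79.6 ± 6.1 RPKM in rtTA, 89.7 ± 4.5 in K9M and 89.4 ± 4.2 in K36M (SD, n = 3 each, as for every mean ± SD given). Cd81, a tetraspanin of the cell surface, stood at 69.0 ± 3.9, 77.5 ± 4.5 and 56.5 ± 4.8 RPKM. Gnas, which encodes the stimulatory G protein alpha subunit and further transcripts from other promoters, stood at 61.02 ± 3.16, 63.7 ± 4.6 and 56.8 ± 3.5 RPKM. Its log2 differences from rtTA, 0.06 for K9M (SE 0.0951, limma adjusted p = 0.913) and -0.10 for K36M (SE 0.0951, limma adjusted p = 0.607), did not pass. The ranges of Nap1l4 and Cd81 run close together in rtTA, where the lowest Nap1l4 library (72.67) lay just below the highest Cd81 library (72.96). Next came Gatm, the first enzyme of creatine synthesis, and Tssc4, a factor for assembly of the U5 spliceosome particle. Tssc4 was at 17.1 ± 1.2, 18.7 ± 0.81 and 17.6 ± 3.4 RPKM, close to Gatm in the rtTA and K9M groups. It did not pass against rtTA either, at 0.13 for K9M (SE 0.136, limma adjusted p = 0.866) and 0.03 for K36M (SE 0.136, limma adjusted p = 0.926).

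In K36M cells, Gatm and Ndn were higher than in rtTA cells, and no member that passed the filter fell past the threshold. The test was limma on log2(RPKM + 0.5) over all 12926 genes past the filter, with a Benjamini-Hochberg adjusted p under 0.05 as the threshold. By it, 2 of the 18 members were called, both higher. Over all tested genes, 1.5% were called in this comparison, 0.572% higher and 0.928% lower. Fold changes are on the log2(RPKM + 0.5) scale, which understates the change of low genes. The closest members short of the threshold were Sgce and Trappc9, given with their clusters.

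Gatm had 15.57, 16.81 and 16.47 RPKM in rtTA, 14.69, 19.62 and 14.20 in K9M, and 36.91, 24.17 and 39.22 in K36M. Every K36M library lay above every rtTA and K9M library, with replicate 2 the lowest of the 3. The mean ratio to rtTA was 2.05, and the log2 difference was 0.99 (SE 0.189, limma adjusted p = 0.0436). With the replicate number as a block, the adjusted p was 0.0589. It was also above the threshold with library weights (0.0635), with a filter of 0.1 RPKM (0.0526), with no filter (0.0925) and with only the 2 groups compared (0.113). The call was lost when any library other than K36M replicate 2 was left out (adjusted p up to 0.182), and no alternative turned the direction.

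Summed long-term stem cell markers, a list of 10 genes that includes Hlf, Mecom and Procr, ran from 94.28 to 106.5 RPKM in rtTA and from 95.76 to 105.2 in K9M. In K36M they were 57.0, 98.26 and 67.55 for replicates 1, 2 and 3, and 1 of the 10 genes was below 1 RPKM in every library. K36M replicate 2, the library nearest to rtTA in these markers, was also nearest in Gatm. Mpo and Elane, made early in granulocyte development and singled out after their values were seen, ordered the K36M libraries as Gatm did. With the stem cell markers they shared only the place of replicate 2. Mpo had 1065, 466.3 and 1292 RPKM in K36M replicates 1, 2 and 3, against 365.4 to 641.6 in rtTA and 358.2 to 676.4 in K9M. Elane had 633.5, 218.3 and 897.8 RPKM, against 84.73 to 235.7 in rtTA and 27.91 to 219.8 in K9M. The other 8 granulocyte markers had lower means in K36M than in rtTA, where replicate 3 was high. Csf1r, a monocyte marker, had 16.5, 6.348 and 23.55 RPKM in K36M, against 4.293 to 10.72 in rtTA and 3.044 to 3.803 in K9M. The 8 monocyte and dendritic markers, Csf1r included, summed to 164.8 to 298.8 RPKM in K36M and 176.5 to 634.3 in rtTA. Klf4, Lyz2, Itgam and Siglech had lower means in K36M than in rtTA. Irf8 was about level (29.16 against 29.63), and Ly86 and Cd14 were higher. The part of these markers in the Gatm result was not tested.

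Gatm lies at chr2:122594467-122611303 on the minus strand (mm10, GENCODE M21). No gene of the classes searched, protein-coding and the main long noncoding kinds, overlaps it on the other strand. Pseudogenes and small RNAs were not searched. Within 250 kb, 8 neighbours were tested and none was called in this comparison, with log2 differences from -0.47 to 0.428 (0 of 8 were also called against K9M). Gatm is among the members whose imprinting is known to be tissue-restricted or mixed, and whether it is imprinted in these cells was not tested. The bases just upstream of the annotated gene are shown because Gatm had the largest change in level of the members above 10 RPKM. The sequence is from RefSeq on GRCm38.p6, at chr2:122611304-122611527, read 5′ to 3′ on the minus strand, with each CG pair, the site of DNA methylation, in capitals.
Gatm upstream: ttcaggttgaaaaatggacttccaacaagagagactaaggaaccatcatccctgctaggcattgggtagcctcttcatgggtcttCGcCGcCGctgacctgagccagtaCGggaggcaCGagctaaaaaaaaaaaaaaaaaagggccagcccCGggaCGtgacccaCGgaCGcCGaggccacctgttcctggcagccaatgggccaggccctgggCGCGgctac
These 224 bases hold 12 CG pairs, and 29.0% of the 32851 RefSeq promoter windows, cut to the same length, hold at least as many. No DNA methylation was measured in these samples.

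Ndn, which encodes necdin, a growth-restraining protein of the MAGE family, had 2.552, 4.132 and 2.760 RPKM in rtTA, 5.639, 5.291 and 7.162 in K9M, and 6.316, 10.29 and 6.354 in K36M. All 6 mutant libraries lay above all 3 rtTA libraries. Against rtTA, K36M was 2.43 times as high on the mean, with a log2 difference of 1.15 (SE 0.228, limma adjusted p = 0.0478). The call was lost when any 1 of the 9 libraries was left out, with an adjusted p of up to 0.146. It was also lost with a filter of 0.1 RPKM (0.0621), no filter (0.1003), only the 2 groups compared (0.141) and voom on approximate reads (0.0558). The direction was upward in every alternative, between 0.93 and 1.34. In K9M the mean was 1.92 times that of rtTA, with a log2 difference of 0.85 (SE 0.228, limma adjusted p = 0.401), which did not pass. Ndn lies at chr7:62346569-62350262 on the plus strand. It overlaps the other-strand gene Gm32061, and the strand setting of the counting is not given in the sources used here. Summed erythroid markers were above the rtTA range in all 3 K36M libraries, but without Hbb-bt, as given above, K36M lay within or below it. The part of these markers in the Ndn values was not tested.

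The other paternally expressed members of the Snrpn domain were lower than Ndn, and their rtTA libraries overlapped those of both mutants. Mkrn3, a ubiquitin ligase gene known from the timing of puberty, had 0.449, 0.603 and 0.926 RPKM in rtTA, 1.147, 0.639 and 0.544 in K9M, and 0.360, 0.606 and 0.428 in K36M, and these groups overlap. Magel2, another MAGE-family gene, had 2 reads over all 9 libraries, 1 in rtTA replicate 1 and 1 in K36M replicate 2. The row named Snrpn, the gene of a splicing protein, had 1.318, 0.273 and 0.451 RPKM in rtTA, 0.943, 1.634 and 1.356 in K9M, and 0.788, 0.537 and 0.373 in K36M. The rtTA libraries spread widely, with replicate 1 far above the others, and overlap both mutant groups, while K36M lies below K9M throughout. None of its 3 comparisons passed, with log2 differences of 0.70 for K9M against rtTA (SE 0.349, limma adjusted p = 0.734), -0.07 for K36M against rtTA (limma adjusted p = 0.941) and -0.76 for K36M against K9M (limma adjusted p = 0.281). The identifier of this row is named Gm38393 in GENCODE M21, a model that overlaps Snrpn and Snurf, so reads may have been shared among these.

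**Figure D2:**
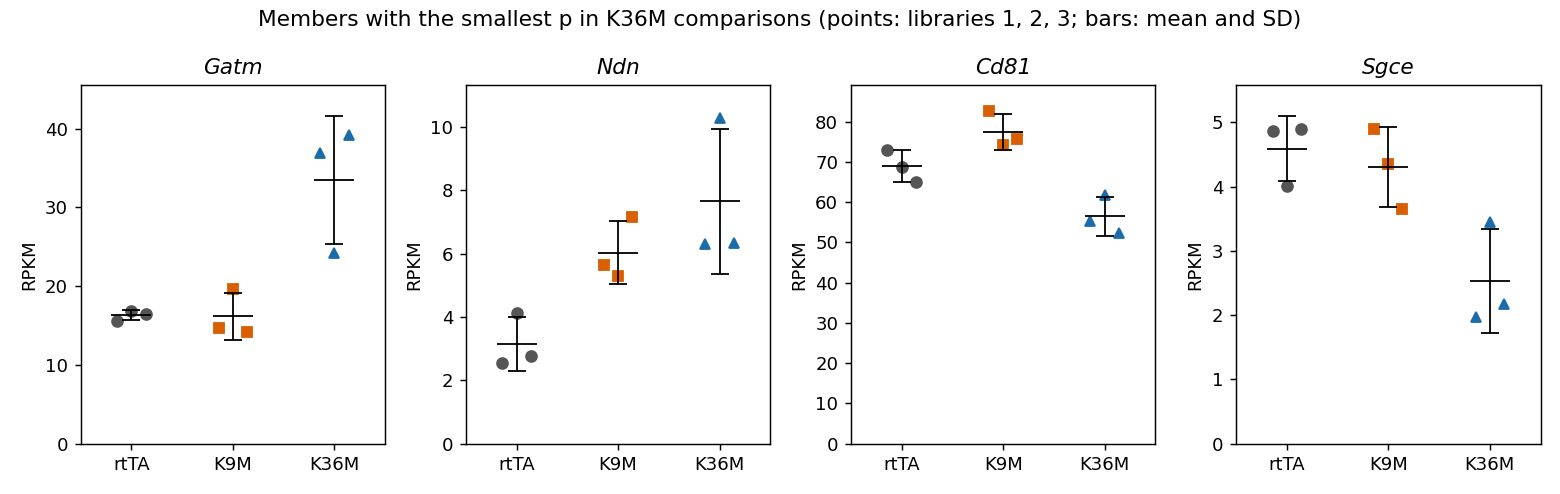
RPKM of the 3 libraries of each group for Gatm, Ndn, Cd81 and Sgce, with bars for the mean and SD and linear axes from 0. K36M points lie above all rtTA points for Gatm and Ndn and below them for Cd81 and Sgce.

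The Peg10-Sgce cluster on chromosome 6 held the lowest fold change among the tested members against rtTA. Sgce, which encodes epsilon-sarcoglycan of the dystrophin complex, had 4.866, 4.009 and 4.901 RPKM in rtTA, 4.891, 4.357 and 3.659 in K9M, and 1.966, 3.455 and 2.171 in K36M. Every K36M library lay below every other library, with replicate 2 again nearest to the rest. The log2 difference from rtTA was -0.78 (SE 0.198, limma adjusted p = 0.0924) and from K9M -0.69 (SE 0.198, limma adjusted p = 0.104), and neither passed. Without K36M replicate 2 both passed, at -0.98 (limma adjusted p = 0.0274) and -0.90 (limma adjusted p = 0.0315). Leaving out that library also raised the calls over all 12926 tested genes, from 194 to 402 and from 326 to 509. Its neighbour Peg10, a retrotransposon-derived gene that starts beside it on the other strand, lay between 0.126 and 0.265 RPKM. Sgce lies at chr6:4674350-4747207, and none of its 3 tested neighbours within 250 kb was called.

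Peg3, a paternally expressed zinc-finger gene, was too low for the test but had most of its reads in K36M. It was listed at 0, 0.0143 and 0.0323 RPKM in rtTA, 0.0132, 0.00858 and 0.0204 in K9M, and 0.174, 0.142 and 0.184 in K36M. As whole reads recovered from the steps in its values, these are 0, 6 and 10 in rtTA, 8, 3 and 4 in K9M, and 87, 65 and 115 in K36M. The K36M libraries all lay above the other 6, with a mean of 10.7 times that of rtTA and 11.9 times that of K9M, while K9M stood at 0.904 times rtTA. Even in K36M the level was below 0.2 RPKM.

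Peg3 had no test in the filtered table. With no filter on low values it passed against rtTA (log2 difference 0.37, limma adjusted p = 0.0318) and against K9M (0.38, adjusted p = 0.0296). With a filter of 0.1 RPKM in at least 3 libraries it did not pass (adjusted p = 0.133 and 0.114), and it entered that fit through the 3 K36M libraries alone, so the fit is no independent check. limma voom on approximate reads, an alternative chosen after the data were seen, gave log2 differences of 3.79 (SE 0.769, adjusted p = 0.0395) and 3.59 (SE 0.663, adjusted p = 0.0221). All of these gave a higher level in K36M, and they differ in whether it passes.

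Peg3 and Usp29, a deubiquitinase gene also expressed from the father's copy, start head to head. Peg3 runs on the minus strand at chr7:6703892-6730431 and Usp29 on the plus strand at chr7:6730578-6967219. The interval between them is shown because it lies before the start of both genes, whose values in K36M differ. It is chr7:6730432-6730577 in RefSeq's GRCm38.p6, written on the plus strand, with CG pairs in capitals.
Peg3 to Usp29: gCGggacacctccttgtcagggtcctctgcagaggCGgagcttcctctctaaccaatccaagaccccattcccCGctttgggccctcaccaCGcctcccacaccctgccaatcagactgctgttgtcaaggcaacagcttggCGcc
These 146 bases hold 5 CG pairs, against a median of 4 in RefSeq windows cut to that length, and 45.0% of windows hold at least as many. The ZFP57 motif TGCCGC was not found on either strand of the interval, and 5.77% of windows hold it. It was not found in the Gatm sequence either, against 7.59% of windows of that length. Neither printed sequence includes bases inside the genes, so this says nothing of motifs there. Usp29 reads numbered 0, 33 and 9 in rtTA, 6, 8 and 6 in K9M, and 0, 8 and 8 in K36M. These are the fewest whole reads that fit, and the M21 length of Usp29 would give 6.91 times as many. Zim1, a maternally expressed zinc-finger gene of the same domain, had 3, 1 and 2 reads in all in the 3 groups. In neither did the K36M libraries lie above the others, and at these counts a moderate difference could not be seen.

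**Figure D3:**
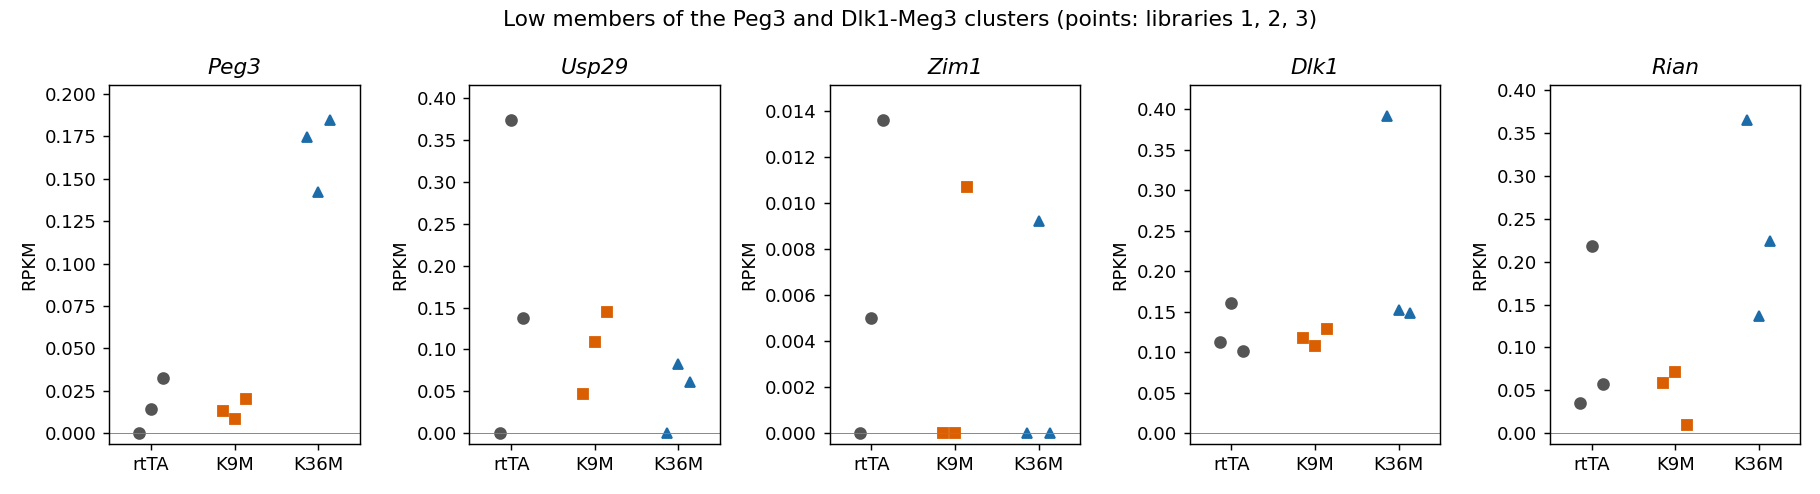
RPKM of Peg3, Usp29, Zim1, Dlk1 and Rian in each library (points; linear axes; no mean is drawn). The 3 K36M points of Peg3 lie between 0.142 and 0.184 RPKM, above all others, while those of Usp29 and Zim1 lie within the range of the other groups.

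The Dlk1-Meg3 cluster was low throughout. Dlk1, a relative of the Notch ligands, lay between 0.102 and 0.160 RPKM in the 6 rtTA and K9M libraries and at 0.391, 0.152 and 0.148 in K36M, so K36M replicate 1 stood above the rest and the other K36M libraries lay within the rtTA range. Rian, a noncoding host of small nucleolar RNAs, had 4, 51 and 10 reads in rtTA, 20, 14 and 1 in K9M, and 102, 35 and 78 in K36M. These are the fewest that fit, and the M21 length of Rian would give 2.63 times as many. The rtTA and K36M groups of Rian overlap in RPKM, since rtTA replicate 2 stood at 0.218. Meg3 had 98 reads over all libraries and Mirg 7, both noncoding RNAs expressed from the mother's copy.

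H19 and Igf2 share an imprinting control region on chromosome 7. H19, a noncoding RNA, had 0.687, 0.357 and 0.249 RPKM in rtTA, 0.311, 0.403 and 0.326 in K9M, and 0.933, 0.786 and 0.487 in K36M. The K36M libraries lay above all K9M libraries and overlapped those of rtTA. Igf2, a fetal growth factor, had 0.0753, 0.0886 and 0.0750 RPKM in rtTA, 0.00511, 0.0398 and 0.0315 in K9M, and 0.0526, 0.0677 and 0.0446 in K36M. The 3 groups of Igf2 do not overlap, in the order rtTA, K36M, K9M, on 49, 55 and 15 reads in all. Igf2 was below the filter, and in fits that hold it no difference passed. For K9M against rtTA the log2 difference was -0.14 with no filter (limma adjusted p = 0.614) and -2.21 with voom on approximate reads (SE 0.791, adjusted p = 0.651).

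Igf2r, the receptor that clears IGF2 and is silenced on the father's copy by the noncoding Airn, stood at 2.23 ± 0.28, 2.13 ± 0.27 and 2.36 ± 0.68 RPKM. Its log2 differences against rtTA were -0.05 in K9M and 0.04 in K36M (SE 0.207 each, limma adjusted p = 0.974 and 0.938). The sign of both turned in alternatives that left out a library. Airn had 34, 48 and 32 reads in the 3 groups, and as it overlaps Igf2r on the other strand its reads cannot be told from those of Igf2r without strand. Slc22a3, an organic cation transporter gene from a list of other imprinted genes, lies in the same cluster and was lower in K36M. It had 44.65, 49.57 and 47.60 RPKM in rtTA, 46.93, 48.31 and 48.61 in K9M, and 24.54, 35.20 and 29.39 in K36M. Every K36M library lay below every other, with a log2 difference of -0.67 from rtTA (SE 0.126, limma adjusted p = 0.0414) and -0.70 from K9M (SE 0.126, limma adjusted p = 0.0299). Leaving out any library other than K36M replicate 2 lost the call against rtTA (adjusted p up to 0.141). Against K9M it was lost without any K9M library or without K36M replicate 1 or 3 (adjusted p up to 0.126). Both calls were also lost with no filter (0.0733 and 0.0580) and with only the 2 groups compared (0.145 and 0.0525).

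Cd81 and its neighbours in the Kcnq1 domain on chromosome 7 are known for imprinting mostly in the placenta. Cd81 had 72.96, 68.82 and 65.13 RPKM in rtTA, 82.54, 74.16 and 75.71 in K9M, and 55.36, 61.76 and 52.39 in K36M. The 3 groups did not overlap, with K9M above and K36M below rtTA. K36M was lower than K9M by a log2 difference of -0.45 (SE 0.098, limma adjusted p = 0.0485). Each mutant group differed from rtTA by less than the test could call, at 0.17 for K9M (adjusted p = 0.769) and -0.29 for K36M (adjusted p = 0.164). The call against K9M was lost on leaving out any library other than rtTA replicate 1 or K36M replicate 2 (adjusted p up to 0.180), and the difference stayed between -0.52 and -0.40. A further 6 alternatives also lost it, among them median centring (0.0653) and no filter (0.0721). Cd81 lies at chr7:143052739-143067934 on the plus strand and overlaps R74862 on the other strand.

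Slc22a18, a maternally expressed transporter gene of the domain, was named after its values were seen. It had 5.963, 3.775 and 3.738 RPKM in rtTA, 3.649, 2.466 and 3.550 in K9M, and 2.536, 3.144 and 2.601 in K36M. All 6 mutant libraries lay below all 3 rtTA libraries, of which replicate 1 was far the highest. Neither log2 difference passed, at -0.41 for K9M (limma adjusted p = 0.736) and -0.59 for K36M (adjusted p = 0.175). Phlda2, a maternally expressed gene known to restrain placental growth, showed the same high rtTA replicate 1, at 13.47 RPKM against 3.494 to 6.165 in the other 8 libraries. Nap1l4 lay above the rtTA range in all 6 mutant libraries and did not pass the test (0.17 in both, SE 0.0949, limma adjusted p = 0.754 and 0.374). Ascl2, a trophoblast transcription factor gene, lay between 0.184 and 0.924 RPKM.

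Trappc9, a gene of the trafficking complex TRAPP that surrounds Peg13, had 7.029, 7.125 and 8.489 RPKM in rtTA, 10.41, 9.119 and 10.33 in K9M, and 9.100, 9.521 and 10.59 in K36M. Both mutant groups lay above all rtTA libraries and overlapped each other. The log2 differences were 0.38 in K9M (SE 0.115, limma adjusted p = 0.487) and 0.35 in K36M (SE 0.115, limma adjusted p = 0.153), and neither passed.

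Among the remaining clusters, Grb10, an adaptor that dampens insulin signalling, had 2.33 ± 0.39, 1.73 ± 0.17 and 2.01 ± 0.38 RPKM, with all K9M libraries below all rtTA libraries (log2 difference -0.34, limma adjusted p = 0.744). Its neighbour Ddc, an amine-synthesis enzyme gene, lay between 0.0577 and 0.174 RPKM. Commd1, a regulator of copper and NF-kB handling, had 6.16 ± 0.83, 6.99 ± 0.28 and 6.55 ± 0.86 RPKM. Its log2 differences from rtTA of 0.18 for K9M (SE 0.131, limma adjusted p = 0.814) and 0.08 for K36M (SE 0.131, limma adjusted p = 0.779) did not pass. Zrsr1, a splicing-factor retrogene inside Commd1 on the other strand, had 2.17 ± 0.49, 1.83 ± 0.12 and 1.58 ± 0.19 RPKM. In Zrsr1 all K36M libraries lay below all K9M libraries, and this did not pass either (-0.17, limma adjusted p = 0.672).

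Of the single imprinted genes, Impact, a regulator of translation under stress, had 7.88 ± 1.0, 6.84 ± 0.13 and 6.21 ± 0.90 RPKM (K36M against rtTA -0.32, limma adjusted p = 0.242). Mest, an enzyme-like protein gene, had 1.45 ± 0.74, 1.77 ± 0.17 and 1.26 ± 0.42 RPKM. Nnat, a small membrane protein gene, lay between 0.697 and 1.46 RPKM. Neither Mest nor Nnat had a comparison past the threshold. The growth-suppressing zinc-finger gene Plagl1 lay between 0.0212 and 0.118 RPKM and Nap1l5, a relative of Nap1l4, between 0 and 0.131, without a group standing apart.

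For K9M against rtTA, limma called 0 of the 18 members, and 0.116% of all tested genes were called, 0.0928% higher and 0.0232% lower. At an unadjusted p under 0.05 there were 2 members, Ndn and Trappc9, where 7.11% of all tested genes were. Voom on approximate reads called 0 of the 31 members it held and 0.0486% of all its genes. Groups did not overlap for 6 members, which were Ndn, Cd81, Trappc9 and Nap1l4 (higher) and Slc22a18 and Grb10 (lower). Over all tested genes 12.5% of genes had groups that did not overlap, 7.09% higher and 5.43% lower. The median log2 difference of the 18 was 0.02 against 0.01 over all tested genes. Of the 18, 9 were positive and 9 negative, where all tested genes gave 6627 positive and 6299 negative.

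For K36M against rtTA, groups did not overlap for 7 of the 18 members, 4 higher (Gatm, Ndn, Trappc9 and Nap1l4) and 3 lower (Slc22a18, Sgce and Cd81). Over all tested genes this share was 22.3%, with 11.6% higher and 10.6% lower. At an unadjusted p under 0.05 there were 7 members, against 19.1% of all tested genes. Voom called 2 of 31 members, Gatm and Peg3, and 1.47% of all its genes. The median of the 18 was -0.08 against 0.02 over all tested genes, with a range from -0.78 to 1.15. Of the 18, 8 were positive and 10 negative, where all tested genes gave 6755 positive and 6171 negative.

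Between the mutants, K36M against K9M, 2 of the 18 members passed, where 2.52% of all tested genes did. Gatm was higher, with a log2 difference of 1.01 (SE 0.189, limma adjusted p = 0.0328), where 1.02% of all tested genes were called higher, and Cd81 was lower, as given above (1.5% of all genes were called lower). The Gatm call was lost without rtTA replicate 3, without any K9M library or without K36M replicate 1 or 3 (adjusted p up to 0.129), with no filter (0.0734) and with only the 2 groups compared (0.0581). Groups did not overlap for 6 members, Gatm higher and Snrpn, Sgce, Cd81, Zrsr1 and Mest lower, against 27.9% of all tested genes (14.5% higher, 13.4% lower). At an unadjusted p under 0.05 there were 3 members, against 18.8% of all tested genes. Voom called 3 of 31, Cd81, Gatm and Peg3, and 2.85% of all its genes. The median of the 18 was -0.12 against 0.01 over all tested genes. Each of the 3 comparisons shares libraries with the others, so their values are not independent of each other.

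**Figure D4:**
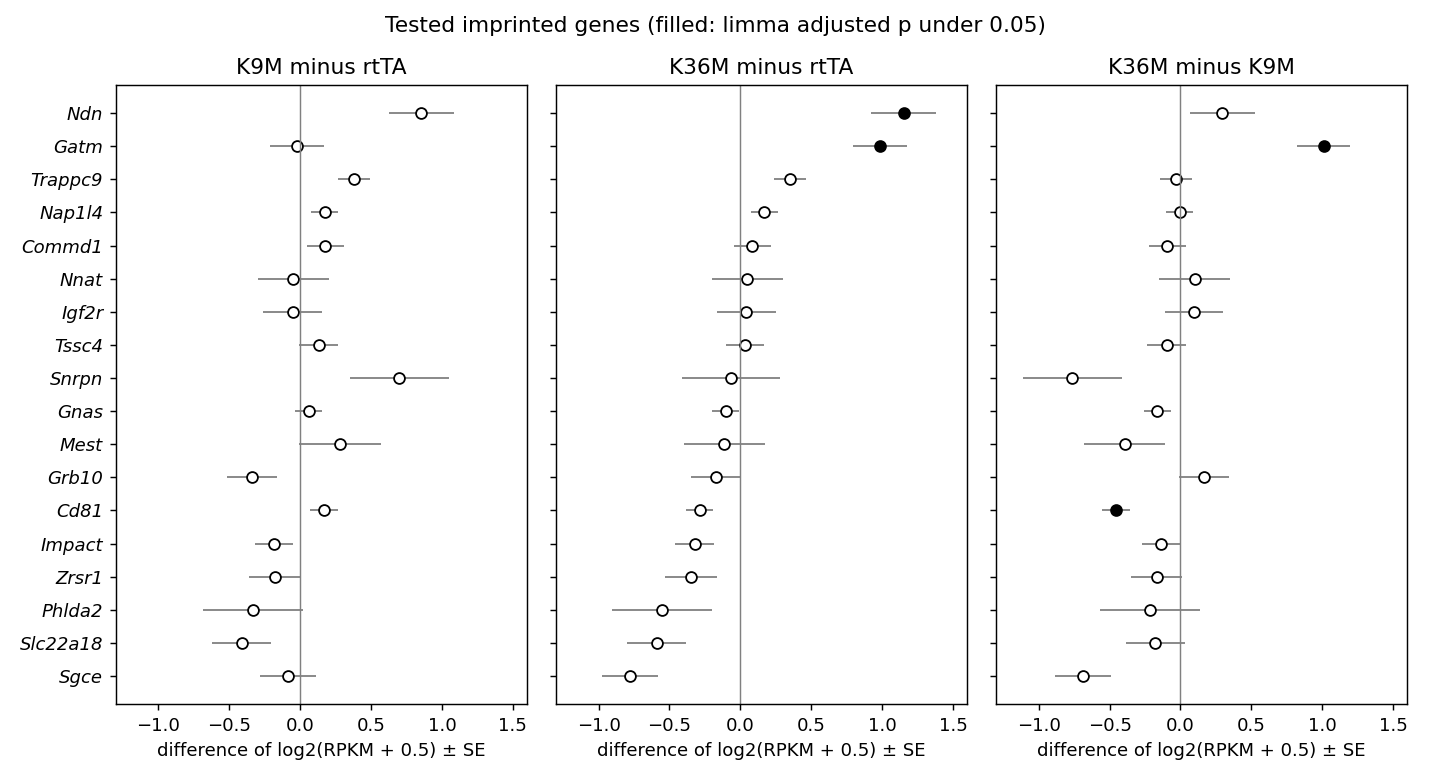
Difference in log2(RPKM + 0.5) with its SE for the 18 tested members in the 3 comparisons (horizontal axis; a line marks 0 and filled points passed the test). Gatm and Ndn lie near 1 for K36M against rtTA, and most other members lie within 0.5 of 0.

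The enzymes and factors that set or keep imprints were tested as background to the members, in a list of 25 genes of which 21 passed the filter. limma called 0 of 21 in each comparison, and voom 0 of 23. At an unadjusted p under 0.05 there were 1, 3 and 1 of the 21 for K9M against rtTA, K36M against rtTA and K36M against K9M, where all tested genes gave 7.11%, 19.1% and 18.8%. Against rtTA, 17 of the 21 had a positive log2 difference in K36M, as did 6755 of all 12926 tested genes. The median was 0.16 against 0.02 over all tested genes. The 3 genes below 0.05 before adjustment for K36M against rtTA were Dnmt1, the maintenance methyltransferase, Uhrf1, which recruits it, and Hells, a chromatin remodeller. That count was no higher than the share of all genes gives. Dnmt1 had 40.47, 58.61 and 64.08 RPKM in rtTA, 54.84, 73.43 and 60.97 in K9M, and 79.38, 72.25 and 91.71 in K36M. All K36M libraries lay above all rtTA libraries, and the log2 difference of 0.59 did not pass (SE 0.185, limma adjusted p = 0.138). Uhrf1 (0.49, limma adjusted p = 0.180) and Hells (0.43, adjusted p = 0.153) did not pass either. Trim28 stood at 164 ± 15, 170 ± 11 and 177 ± 8.5 RPKM and Setdb1 at 11.2 ± 3.3, 9.86 ± 0.95 and 11.2 ± 0.67. Zfp57, the factor that reads the methylated motif, was below the filter at 0.678, 1.014 and 0.697 RPKM in rtTA, 0.800, 0.731 and 1.890 in K9M, and 0.106, 0.603 and 0.341 in K36M. Its K36M libraries were the lowest of all 9.

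A list of 50 other imprinted genes held 44 with a row and 23 past the filter. Slc22a3 was the only 1 of the 23 that limma called, in both comparisons with K36M, where 1.5% and 2.52% of all tested genes were called. For K9M against rtTA it called 0 of 23 (0 at an unadjusted p under 0.05, and 0 of 32 by voom). Voom called 1 of 32 for K36M against rtTA and 2 of 32 for K36M against K9M, where it called 1.47% and 2.85% of all its genes. Of the 23, 16 had a negative log2 difference for K36M against rtTA, as did 6171 of all 12926 tested genes. The median was -0.22 against 0.02 over all tested genes. Cdkn1c, the maternally expressed cell-cycle inhibitor of the Kcnq1 domain, had 4.279, 3.479 and 3.028 RPKM in rtTA, 4.238, 4.074 and 4.276 in K9M, and 3.072, 3.299 and 2.130 in K36M. Its K36M libraries lay below all K9M libraries and overlapped rtTA, and the log2 difference from K9M of -0.51 did not pass (SE 0.175, limma adjusted p = 0.159). Tspan32, next to Cd81, came closest to the threshold for K36M against K9M among the uncalled genes of this list (-0.45, SE 0.0983, limma adjusted p = 0.0519).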

How the data were processed

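RNA from sorted LSK cells of 9 mice was sequenced, with groups taken from the sample titles. The authors deposited RPKM values per gene; the submitters' processing notes name CASAVA 1.7, STAR and the mm10 build. Neither the STAR version nor the counting rule is stated: both are not given in the sources used. The labels give polyA RNA as the molecule but a total RNA kit for the libraries, which bears on noncoding members.

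Members were matched by symbol and placed with GENCODE M21 on mm10. The members and gene lists were chosen with earlier results of these data known. limma 3.58.1 in R 4.3.3 fitted 3 group means over 9 libraries to log2(RPKM + 0.5) for the 12926 genes that reached 1 RPKM in 3 or more libraries, with eBayes and a trend (degrees of freedom: residual 6, prior 3.14). All tests are two-sided. Adjustment was over all tested genes. The code of the fit was run on simulated data with independent normal errors, which cannot show whether that assumption holds for these libraries.

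Depth came from steps between low RPKM values: 50.4% to 52.1% of low values were whole reads within 0.02, so depths are approximate. Approximate reads from these depths and M21 gene lengths were used only in voom (at least 5 reads in at least 3 libraries, 18517 genes). Reads of the 17 low members came from each gene's own smallest common step, within 0.1, at the same approximate depths. They are the fewest whole reads that fit, so true counts can be higher.

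Full statistics were given for members that passed, the 3 with the smallest p in each comparison, the 5 highest, and the highest in each cluster. The replicate number in the sample titles was used as a block over all 9 libraries, an alternative planned beforehand. The labels do not say that equal numbers are paired. Deviations of same-numbered K36M and rtTA libraries correlated (r = 0.414, 0.369 and 0.377). Those of rtTA and K9M (0.162, 0.0599 and 0.0174) and of K9M and K36M (0.0741, -0.171 and 0.053) did not all reach 0.1. RefSeq promoter windows on GRCm38.p6 matched 30 members, and printed sequence was limited to bases outside M21 exons.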

Additional observations from a re-analysis of the deposited data

How the results depend on the processing

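The number of members called for K9M against rtTA was 0 in every alternative. For K36M against rtTA it moved from 2 to 1 with no filter (Peg3), with library weights (Ndn) and with the replicate block (Ndn), and to 0 with a filter of 0.1 RPKM or with only the 2 groups compared. Leaving out a library gave 0 to 2. For K36M against K9M it moved from 2 to 1 with a pseudocount of 0.1, a filter of 0.1 RPKM, median centring or no trend (Gatm in each) and with no filter (Peg3), to 0 with only the 2 groups compared, and to 3 with voom. Leaving out a library gave 0 to 3. Genes called over the whole table ran from 4 to 62 (15 as reported) for K9M against rtTA, 10 to 402 (194) for K36M against rtTA and 15 to 595 (326) for K36M against K9M. With the replicate block they numbered 301 and 595 in the latter comparisons, and the block ended no other member's call. The causes were not tested.

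Among 42 fold changes of 14 named genes, 13 changed sign somewhere, all of size up to 0.0984. With quantile normalization, K9M against rtTA was -0.019 for Gnas and -0.0425 for Slc22a3, and K36M against rtTA was -0.0205 for Tssc4. Snrpn for K36M against rtTA was 0.0856 with library weights and 0.137 with voom. The others turned when a library was left out. Over those fits K9M against rtTA ran from -0.167 to 0.0594 for Gatm, -0.113 to 0.035 for Igf2r, -0.175 to 0.0121 for Sgce and -0.0187 to 0.0559 for Slc22a3. K36M against rtTA ran from -0.015 to 0.184 for Commd1, -0.0991 to 0.250 for Igf2r, -0.321 to 0.296 for Snrpn and -0.105 to 0.166 for Tssc4. K36M against K9M ran from -0.0457 to 0.304 for Igf2r, -0.0454 to 0.0258 for Nap1l4, -0.0897 to 0.0144 for Trappc9 and -0.235 to 0.0357 for Tssc4. Low members rest on few reads: 1 read in a 1 kb gene was worth 0.0199 to 0.0631 RPKM.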
